A study of Homo sapiens with 18 samples.

Results

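The response of HepG2 cells to the small molecule 6N was measured by RNA sequencing in 3 libraries of cells given 6N at 10 µM and 3 libraries of cells given the vehicle DMSO at 0.1%. Libraries were chosen by their treatment label, and these 6 are part of 18 libraries in 6 groups of 3, which all entered the same fit. The study concerns LRH-1, a nuclear receptor, and compounds directed at its ligand pocket. Libraries of cells treated with the other small molecules, 10CA or 6N-10CA, also at 10 µM, were used for direct comparisons with 6N at this matched dose. The remaining groups were DLPC, a phospholipid, at 100 µM, which served the fit alone, and the vehicle ethanol at 0.1%, which was also tried in place of DMSO. HepG2 is a single human line derived from a hepatoblastoma, a liver tumour, and all groups were kept in medium with charcoal-stripped serum, which is depleted of steroids and other small lipids. 6N, 10CA and 6N-10CA are known here by their code names alone. The length of treatment is not given in the sources used here, nor is it stated whether replicates were separate cultures. P-values therefore measure the spread between these libraries, which may be technical.

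LRH-1, encoded by NR5A2, is an orphan nuclear receptor that binds phospholipids and acts in liver on genes that handle cholesterol, bile acids and steroids. Liver cells set their sterol and fatty acid synthesis mainly through the SREBP transcription factors: SREBP2, encoded by SREBF2, acts chiefly on cholesterol genes, and SREBP1, encoded by SREBF1, chiefly on fatty acid genes. The receptor LXR senses oxidised sterols and raises SREBF1, and receptors such as AHR and PXR raise cytochrome P450 genes when foreign molecules enter the cell.

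The 6N libraries held 29083284 to 30850592 counts and the DMSO libraries 30327317 to 34579945. Levels are given in CPM, each gene's share of the library's counts scaled to a common total. All 11 hepatic marker genes were expressed, with a summed level of 57678 to 66429 CPM with 6N and 64399 to 67121 CPM with DMSO; 6N replicate 2 had the lowest sum. The summed level of 4 blood markers was 86.1 to 104 CPM with 6N and 87.1 to 90.6 CPM with DMSO, nearly all of it CD68, while PTPRC, the pan-leukocyte marker, lay between 0.0344 and 0.264 CPM. The summed level of 4 endothelial markers was 29.6 to 36.1 CPM with 6N and 32.8 to 34.8 CPM with DMSO. CDH5 stood at 15.5 to 19.3 CPM with 6N and 16.3 to 17.2 CPM with DMSO. PECAM1 stood at 11.6 to 13.4 CPM with 6N and 12.4 to 14.3 CPM with DMSO. VWF was at 2.46 to 3.87 CPM with 6N and 3.23 to 4.35 CPM with DMSO, and KDR at 0 in all 6 libraries. The summed level of 5 stromal markers was 6.22 to 7.15 CPM with 6N and 7.02 to 11.02 CPM with DMSO. NR5A2 itself was expressed at a low level, at 3.56, 4.40 and 3.84 CPM with 6N, against 3.97, 3.11 and 4.48 CPM with DMSO. The groups overlapped, and the log2 fold change was 0.03 (95% interval -0.36 to 0.42).

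With 6N, genes of cholesterol and fatty acid synthesis fell together, and a smaller number of genes rose. Among the latter were CYP1A1, CYB5A and some other genes of drug metabolism, and the bile acid exporter gene SLC51A. Drug metabolism did not rise as a class, with 4 phase I genes higher and 3 lower, and 2 conjugating enzymes higher and 2 lower. Of 14797 genes tested, 169 passed the threshold, a Benjamini-Hochberg adjusted p under 0.05 in edgeR's quasi-likelihood test. These 169 are 1.14% of the genes tested. Of them, 44 were higher with 6N (0.297%) and 125 lower (0.845%). The changes were mostly small. Over 2-fold, 5 genes rose and 6 fell. The 5 were CYP24A1, CYP1A1, SEC14L4, a lipid transfer protein gene, CPSF4L, and SLC52A1, a riboflavin transporter gene with a mean under 1 CPM. SEC14L4 changed by 1.14 at a level of 1.64 ± 0.51 CPM with 6N and 0.74 ± 0.10 CPM with DMSO, and lost the call without 6N replicate 2 (change of 0.86; edgeR adjusted p = 0.192), without any one of the DMSO replicates, with only the groups compared and with ethanol as the vehicle (change of 0.50). All 3 libraries of either group lay above all 3 of the other for each of the 169 called genes, a pattern that 927 tested genes showed with 6N above (6.26%) and 1082 with 6N below (7.31%). In log2 units the median change was 0.32 among the genes that rose and -0.39 among those that fell. Over all tested genes the median was -0.0006, and 50.2% of them had a value below 0. At an unadjusted p under 0.05 there were 1384 genes (9.35%). The count of called genes was 111 without 6N replicate 2 and 112 without DMSO replicate 1. These fits do not model replicate number, nor do the other fits below with 1 library left out. With replicate number as a block 551 genes were called, all 169 among them. Bulk RNA cannot tell fewer cells of a kind from less RNA per cell, and this holds for each result below.

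**Figure D1:**
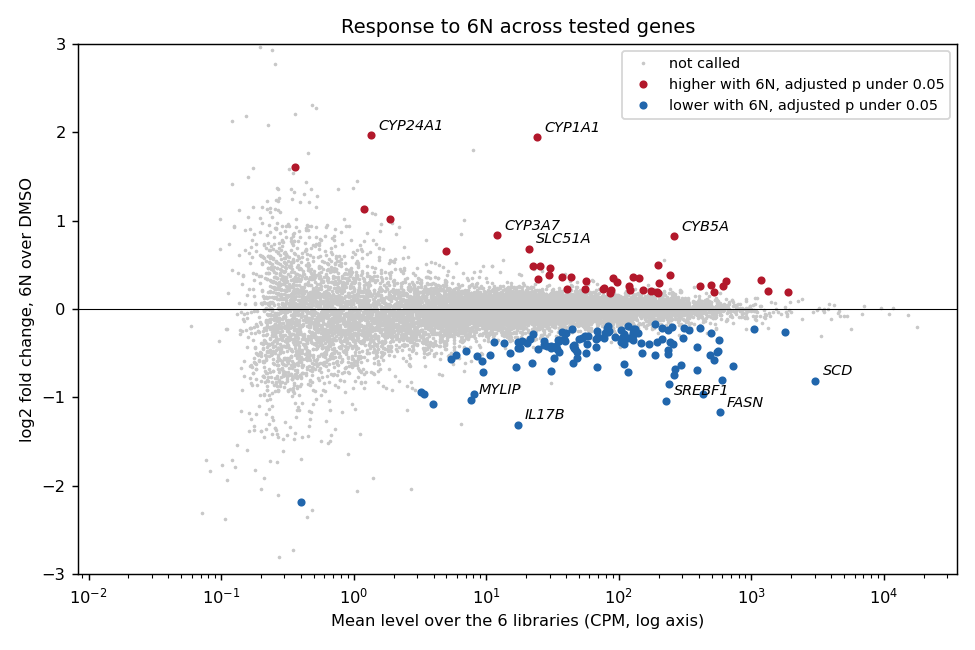
Log2 fold change of 6N over DMSO against mean level over the 6 libraries (CPM, log axis), 1 point per tested gene; red genes were higher and blue genes lower with 6N at an adjusted p under 0.05, and 14 genes beyond 3 log2 units are not drawn. Called genes lie mostly below the line at 0, among them SREBF1, FASN and SCD, while CYP1A1 and CYP24A1 lie near 2 log2 units above it.

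Many of the genes that fell belong to lipid synthesis. Across the lists of sterol synthesis, sterol control and uptake, and fatty acid synthesis, 63 genes were tested, of which 0 rose and 38 fell. These 38 genes were 30.4% of all genes that fell. Their level summed over the 63 genes was 15529, 14601 and 14954 CPM with 6N, against 21041, 21180 and 20507 CPM with DMSO. The 3 libraries with 6N all lay below the 3 with DMSO.

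In the mevalonate arm of cholesterol synthesis, which runs from acetyl-CoA to farnesyl diphosphate, 7 of 9 tested genes fell and 0 rose, with a median log2 fold change of -0.52 over the list against -0.0006 over all genes. The 7 calls were also made with any single library left out. HMGCS1 (GRCh38 chromosome 5, 43289395 to 43313512), which makes HMG-CoA, stood at 165, 169 and 178 CPM with 6N, against 286, 324 and 312 CPM with DMSO. Every 6N library lay well below every DMSO library, and the log2 fold change was -0.85 (SE 0.06; edgeR adjusted p = 1.12e-07). MVD, the mevalonate diphosphate decarboxylase (chromosome 16, 88651935 to 88663161), stood at 208, 190.2 and 184 CPM with 6N, against 305, 353 and 321 CPM with DMSO, a log2 fold change of -0.75 (SE 0.06; edgeR adjusted p = 1.45e-07). Of the later enzymes, FDPS, which makes farnesyl diphosphate, and IDI1, the isopentenyl diphosphate isomerase, each changed by -0.52. ACAT2, which joins the first acetyl-CoA units, changed by -0.35, and MVK, the mevalonate kinase, by -0.41. PMVK, the kinase between MVK and MVD, was not called, at -0.07 (27.3 ± 1.5 CPM with 6N and 28.7 ± 2.25 CPM with DMSO; SD, n = 3 each). GGPS1, which leads away from sterols to geranylgeranyl diphosphate, was not called either, at -0.06.

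From squalene synthase to cholesterol 12 of 13 tested genes fell and 0 rose, with a median log2 fold change of -0.37. FDFT1, the squalene synthase, stood at 443, 407 and 408 CPM with 6N, against 617, 663 and 601 CPM with DMSO, a change of -0.58 (SE 0.05; edgeR adjusted p = 4.42e-07). LSS, which closes the sterol rings, stood at 312, 291 and 284 CPM with 6N, against 501, 478 and 452 CPM with DMSO, a change of -0.69 (SE 0.06; edgeR adjusted p = 1.56e-06). In both genes the groups were well apart. SQLE, the squalene epoxidase, changed by -0.46, MSMO1, a sterol methyl oxidase, by -0.51, DHCR7, a reductase of the last steps, by -0.49, and CYP51A1, the lanosterol demethylase, by -0.37. HSD17B7 changed by -0.39, and reads of this gene can be shared with its pseudogene copy. LBR, a lamin receptor with sterol reductase activity, was the 1 member that did not fall, at 0.00. The smallest changes, EBP at -0.22, NSDHL at -0.27, TM7SF2 at -0.34 and SC5D at -0.34, each lost the call without 6N replicate 2, with adjusted p-values of 0.138, 0.0820, 0.246 and 0.0797 by the same test. SC5D also lost it without DMSO replicate 1, NSDHL without 6N replicate 3 or DMSO replicate 2, EBP without 6N replicate 3 or DMSO replicate 1 or 2, and TM7SF2 without 6N replicate 3 or any one of the DMSO replicates. The number called in this list was 8 to 12 with 1 library left out.

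Among 20 tested genes of sterol sensing, uptake and transport, 6 fell and 0 rose, and the median was -0.07. The number called was 5 without 6N replicate 3 or DMSO replicate 2. SREBF2 (chromosome 22) stood at 274, 263 and 269 CPM with 6N, against 342, 325 and 347 CPM with DMSO, a change of -0.33 (SE 0.05; edgeR adjusted p = 0.00162). STARD4, a sterol carrier, changed by -0.49. MYLIP, which marks the LDL receptor for degradation, changed by -1.03, in the same direction as the synthesis genes. The SREBP escort SCAP stood at 0.00, the retention factor INSIG2 at -0.10, and the proteases MBTPS1 and MBTPS2 at -0.07 each, and none of these was called. INSIG1, the other retention factor, had 0 to 3 counts in each of the 18 libraries and was not tested.

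Of 21 tested genes of fatty acid synthesis 13 fell and 0 rose, with a median of -0.43. SREBF1 (chromosome 17, 17810399 to 17837002) stood at 142, 163 and 143 CPM with 6N, against 289.9, 321 and 308 CPM with DMSO. All 6N libraries lay far below all DMSO libraries, and the log2 fold change was -1.04 (SE 0.07; edgeR adjusted p = 2.98e-08). FASN, the fatty acid synthase (chromosome 17, 82078333 to 82098332), stood at 325, 376 and 363 CPM with 6N, against 654, 886 and 850.1 CPM with DMSO. DMSO replicate 1 was lower than its group, and still above every 6N library; the change was -1.17 (SE 0.10; edgeR adjusted p = 3.45e-07). SCD, which desaturates stearate to oleate, stood at 2292, 2056 and 2269 CPM with 6N, against 4084, 3848 and 3694 CPM with DMSO, a change of -0.81 (SE 0.05; edgeR adjusted p = 1.90e-08).

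The desaturases of long polyunsaturated chains were lower too. FADS2 stood at 319, 276 and 275 CPM with 6N, against 590.3, 565 and 543 CPM with DMSO, a change of -0.97 (SE 0.06). FADS1 changed by -0.43. FADS1 and FADS2 overlap in the annotation on chromosome 11 and strandedness is not given in the sources used here, so that their reads cannot be fully told apart. Of the enzymes that supply acetyl-CoA to the cytosol, ACSS2 changed by -0.71 (SE 0.08) and ACLY by -0.48 (SE 0.05). ACACA, the acetyl-CoA carboxylase, changed by -0.65, ELOVL6, which elongates palmitate, by -0.70, and the acyl-CoA synthetases ACSL3 and ACSL4 by -0.68 and -0.38. SLC25A1, the mitochondrial citrate carrier, changed by -0.23 but lost the call without 6N replicate 2 or 3 and without any one of the DMSO replicates, where the adjusted p reached 0.256.

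**Figure D2:**
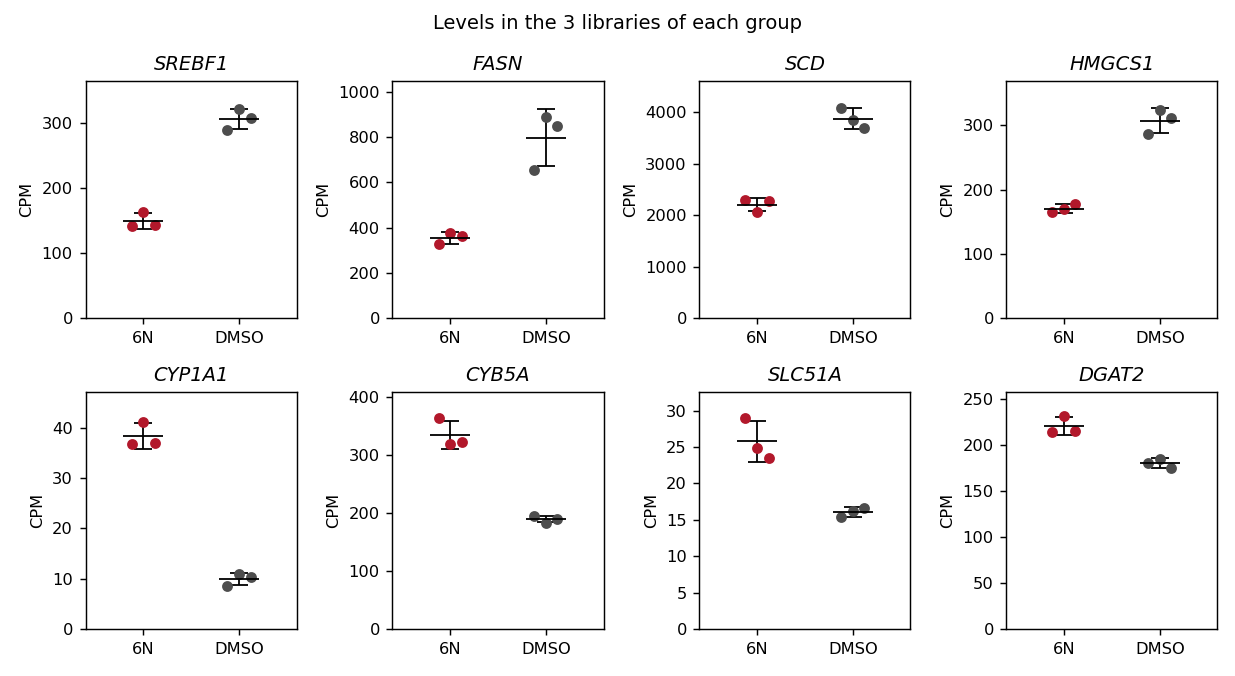
CPM of 8 genes in each library of the 6N and DMSO groups (points), with the group mean and SD (line and bar); every panel starts at 0. SREBF1, FASN, SCD and HMGCS1 are lower in all 3 6N libraries, and CYP1A1, CYB5A, SLC51A and DGAT2 are higher in all 3.

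Promoter sequence was examined for these genes because the SREBP factors are known to act beside NF-Y, a factor that binds CCAAT. RefSeq promoters (GRCh38.p14) of 300 bases, 250 before to 50 after the gene start, were at hand for 29 of the 38 sterol and fatty acid genes that fell. CCAAT, on either strand, was present in 21 of these 29 (72.4%). It was present in 25 of 65 promoters of the other genes that fell (38.5%), in 7 of 33 of genes that rose (21.2%) and in 36.3% of the promoters of all tested genes. With any start listed for a gene in place of the first, these shares were 82.8%, 50.8%, 30.3% and 42.8%. The sterol response element was searched in 1 spelling alone, TCACNCCAC. This spelling was present in 1 of the 29, SREBF2 (3.45%), and in 1.17% of all tested promoters. The AHR element core TNGCGTG was present in 1 of 33 promoters of genes that rose (3.03%) and in 7.26% of all tested. With any listed start these shares were 12.1% and 9.33%, in the opposite order. Of the 29 sterol and fatty acid genes that fell, 4 held this core (13.8%, or 17.2% with any listed start). The LXR direct repeat, AGGTCA repeated after 4 bases, was in 0 of the promoters of called genes and in 0 of those of all 10544 tested genes with a promoter. A match is a run of letters and not a site shown to be bound. Lack of a match does not show that a promoter has no site, since other spellings were not searched. The 250 bases before the start of SREBF2 and of 3 genes of the mevalonate arm are printed to show how often and where the box stands; capitals mark CCAAT or its reverse complement ATTGG, and in SREBF2 also the sterol response element. They are SREBF2 at chr22:41832855-41833104 on the plus strand, HMGCS1 at chr5:43313413-43313662 on the minus strand, MVD at chr16:88663092-88663341 on the minus strand and FDPS at chr1:155308616-155308865 on the plus strand. The 4 genes were chosen after their values were seen.
SREBF2: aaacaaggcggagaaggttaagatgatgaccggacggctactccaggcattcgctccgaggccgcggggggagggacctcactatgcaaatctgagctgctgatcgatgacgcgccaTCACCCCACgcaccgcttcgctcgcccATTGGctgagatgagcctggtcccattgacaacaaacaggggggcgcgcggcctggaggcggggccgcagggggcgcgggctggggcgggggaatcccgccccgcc
HMGCS1: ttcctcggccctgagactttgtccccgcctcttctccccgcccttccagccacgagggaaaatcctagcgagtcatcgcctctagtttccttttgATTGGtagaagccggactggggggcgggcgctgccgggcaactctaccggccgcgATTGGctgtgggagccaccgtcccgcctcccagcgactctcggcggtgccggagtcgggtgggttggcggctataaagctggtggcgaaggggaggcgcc
MVD: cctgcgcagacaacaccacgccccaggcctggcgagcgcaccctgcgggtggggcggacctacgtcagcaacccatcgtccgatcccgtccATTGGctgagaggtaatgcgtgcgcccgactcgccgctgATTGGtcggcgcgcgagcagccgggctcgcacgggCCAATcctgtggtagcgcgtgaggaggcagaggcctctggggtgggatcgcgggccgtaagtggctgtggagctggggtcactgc
FDPS: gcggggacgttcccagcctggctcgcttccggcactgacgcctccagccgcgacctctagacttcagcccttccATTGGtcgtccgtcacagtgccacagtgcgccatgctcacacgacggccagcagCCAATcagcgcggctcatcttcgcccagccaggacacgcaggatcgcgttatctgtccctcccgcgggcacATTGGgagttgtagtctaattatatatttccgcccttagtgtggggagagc
SREBF2 held 1 CCAAT box and HMGCS1 held 2, while MVD and FDPS held 3 each. Against DMSO these genes changed by -0.33 (SREBF2), -0.85 (HMGCS1), -0.75 (MVD) and -0.52 (FDPS). Whether the number of boxes goes with the size of the change was not tested. MVK and NSDHL, with several boxes each, changed by -0.41 and -0.27. ACACA, with no box in the 300 bases at its first listed start, changed by -0.65.

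Of 28 tested genes of triglyceride synthesis and lipid droplets, 2 rose and 0 fell, with a median of 0.02. DGAT2 (chromosome 11), which adds the last acyl chain to triglyceride, stood at 215, 232 and 215 CPM with 6N, against 181, 185 and 175 CPM with DMSO, with no overlap and a change of 0.29 (SE 0.05; edgeR adjusted p = 0.00234). DGAT1, which catalyses the same step, changed by 0.21 and lost the call without 6N replicate 1 or 3 and without any one of the DMSO replicates, where the adjusted p reached 0.256. PLIN2, the main droplet coat gene in hepatocytes, stood at 667 ± 45.5 CPM with 6N and 661 ± 52.4 CPM with DMSO (SD, n = 3 each), a difference of 0.01 that was not called.

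Of 15 tested genes of LXR and its targets 3 fell, SREBF1, MYLIP and LPCAT3, and 0 rose; SREBF1 and MYLIP are also counted in the lists above. LPCAT3, which places polyunsaturated chains on phosphatidylcholine, stood at 97.4, 93.9 and 90.3 CPM with 6N, against 115, 131 and 123 CPM with DMSO, a change of -0.39 (SE 0.05; edgeR adjusted p = 0.000294). The sterol exporters were not called, with ABCA1 at -0.16 (90.9 ± 6.28 CPM with 6N and 101 ± 2.34 CPM with DMSO), ABCG5 at -0.23 and ABCG8 at -0.10. In ABCA1, ABCG5 and ABCG8 all 6N libraries lay below all DMSO libraries, as in 7 of the 15 listed genes and 7.31% of all tested. The median of the list was -0.10, with 13 of 15 below 0 against 50.2% of all tested genes. At an unadjusted p under 0.05 there were 6, all lower, against 9.35% of all tested genes.

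Genes of fatty acid oxidation and other PPARA targets were mixed, with 1 of 28 tested higher and 4 lower and a median of -0.01. UCP2, a mitochondrial carrier, changed by -0.34 (SE 0.06) and kept its call with any single library left out. FABP1, the liver fatty acid binding protein, stood at 683, 448 and 568 CPM with 6N, against 947, 803 and 897 CPM with DMSO. Replicate 2 was the lowest of its group both with 6N and with DMSO, and the libraries did not overlap. The change of -0.64 (SE 0.14) lost the call without 6N replicate 2 or 3 and without DMSO replicate 1 or 3, where the adjusted p reached 0.189. With replicate number as a block the edgeR adjusted p for FABP1 was 2.6e-09. CPT1A, the gate of fatty acids into mitochondria, changed by 0.66 at a level of 6.07 ± 0.91 CPM with 6N and 3.85 ± 0.67 CPM with DMSO, and lost the call without 6N replicate 1 or 2 and without DMSO replicate 1 or 3. ACSL1, an acyl-CoA synthetase, at -0.33, and ACOT1, an acyl-CoA thioesterase, at -0.28, lost the call in 3 of the 6 fits without 1 library each. ACSS1, which makes acetyl-CoA inside mitochondria, stood at 222, 236 and 235 CPM with 6N, against 154, 177 and 161 CPM with DMSO. It rose by 0.49 (SE 0.09; edgeR adjusted p = 0.00338), opposite to its cytosolic counterpart ACSS2.

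**Figure D3:**
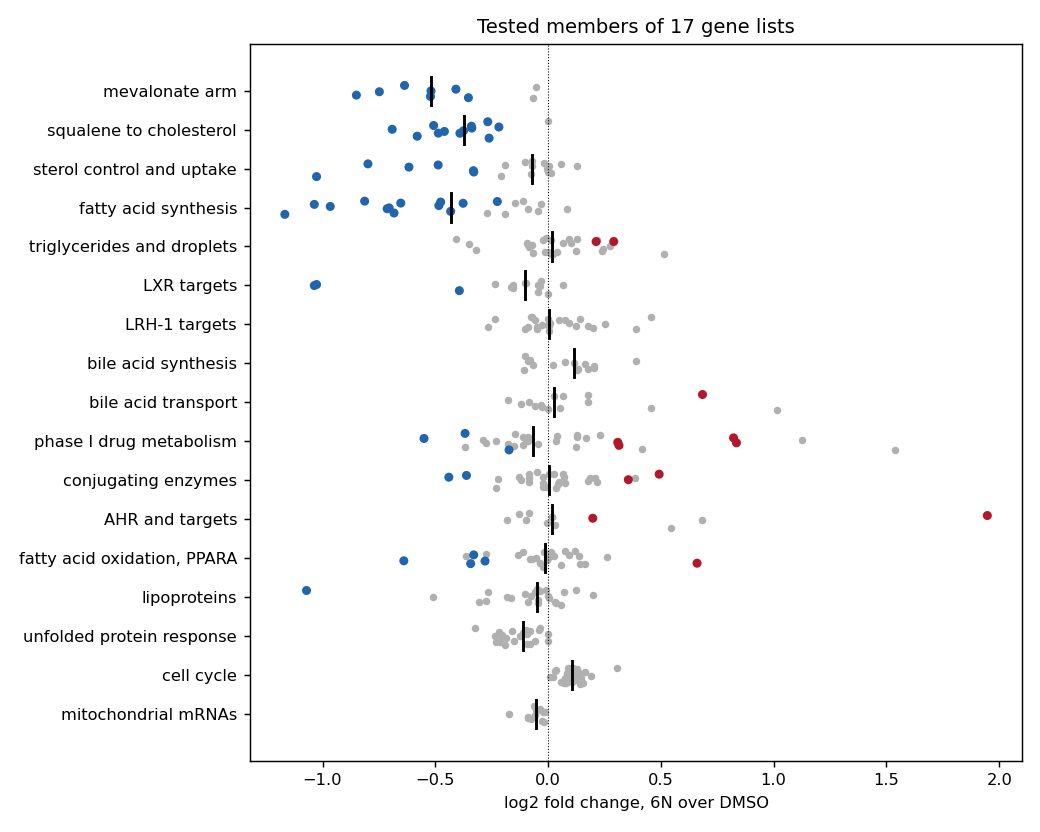
Log2 fold change of 6N over DMSO of the tested members of 17 gene lists (points; red higher and blue lower at an adjusted p under 0.05, grey not called), with the median of each list as a black bar. The medians of the mevalonate, squalene to cholesterol and fatty acid synthesis lists lie at -0.52, -0.37 and -0.43, and those of the other lists lie near 0, between -0.11 and 0.11.

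The genes that rose most included several of drug and steroid metabolism. CYP1A1 (chromosome 15, 74719542 to 74725610), a P450 and the classic target of AHR, stood at 36.9, 41.3 and 37.0 CPM with 6N, against 8.60, 10.9 and 10.4 CPM with DMSO. All 6N libraries lay far above the highest DMSO library, and the change was 1.95 (SE 0.22; edgeR adjusted p = 3.24e-05), a 3.86-fold rise. Among 12 tested genes of AHR and its targets 2 rose, CYP1A1 and SLC7A5, and 0 fell, with a median of 0.02. SLC7A5, an amino acid transporter, changed by 0.20 and lost the call without 6N replicate 2 or 3, without any one of the DMSO replicates and with ethanol as the vehicle. The AHR repressor gene AHRR stood at 0.68 (adjusted p = 0.324), CYP1A2 at 0.55 (adjusted p = 0.564), TIPARP at 0.02 and NQO1 at -0.13, and none was called by edgeR's quasi-likelihood test.

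Partners of the P450 enzymes rose as well. CYB5A, cytochrome b5, which passes electrons to P450 and desaturase enzymes, stood at 363, 319.8 and 323 CPM with 6N, against 195, 184 and 190.3 CPM with DMSO. The groups were far apart, with a change of 0.82 (SE 0.06; edgeR adjusted p = 4.33e-08), the smallest p among the genes that rose. POR, the P450 reductase, stood at 765, 657 and 699 CPM with 6N, against 564, 564 and 578 CPM with DMSO, a change of 0.31 (SE 0.05; edgeR adjusted p = 0.00275). EPHX1, the microsomal epoxide hydrolase, changed by 0.31 (SE 0.06). CYP3A7, the fetal CYP3A form, stood at 16.7, 13.3 and 16.2 CPM with 6N, against 7.47, 10.4 and 8.11 CPM with DMSO, a change of 0.84 (SE 0.12; edgeR adjusted p = 0.000653). Reads of CYP3A7 can be shared with its close relatives. CYP3A5 stood at 0.42 (adjusted p = 0.124) and CYP3A4 at 1.54 (adjusted p = 0.150) at a level of 0.52 ± 0.23 CPM with 6N and 0.18 ± 0.05 CPM with DMSO, and neither was called by the same test.

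Other phase I genes fell. In the list of 30 tested, 4 rose and 3 fell, with a median of -0.07. The genes that fell were CYP4F2, a fatty acid and vitamin hydroxylase, at -0.55, and the alcohol dehydrogenases ADH4 and ADH6, at -0.37 and -0.17. CYP4F2 stood at 28.9, 26.0 and 24.3 CPM with 6N, against 38.7, 36.9 and 40.4 CPM with DMSO, with reads that can be shared within its family. Among 29 tested conjugating enzymes 2 rose and 2 fell. The glutathione transferases GSTA2 and GSTA1, near-identical genes whose reads can be split between them, changed by 0.49 and 0.36, while UGT2B4, a glucuronosyltransferase, and SULT1E1, the estrogen sulfotransferase, changed by -0.44 and -0.36. GSTA1 lost the call without any one of the 6N replicates and without DMSO replicate 1 or 3, and SULT1E1 without 6N replicate 2 or 3 or DMSO replicate 1 or 3. The number called in this list was 2 to 5 with 1 library left out; it was 2 without 6N replicate 2 or 3 or DMSO replicate 1 or 3.

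CYP24A1, which degrades vitamin D, was the 1 called member of 20 tested genes of steroid, vitamin D and retinoid metabolism. It stood at 2.61, 1.74 and 2.16 CPM with 6N, against 0.666, 0.492 and 0.491 CPM with DMSO. All values were low and did not overlap, and the change was 1.97 (SE 0.35; edgeR adjusted p = 0.00386). With ethanol as the vehicle the change was 1.14 and was not called (edgeR adjusted p = 0.0892), and the ethanol group averaged 0.98 ± 0.44 CPM (SD, n = 3).

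SLC51A, a subunit of the transporter that exports bile acids at the basolateral membrane, was the 1 called member of 15 tested bile acid transport genes. It stood at 28.96, 24.9 and 23.4 CPM with 6N, against 15.4, 16.2 and 16.7 CPM with DMSO, with a change of 0.68 (SE 0.11; edgeR adjusted p = 0.00208). Its partner SLC51B, at 0.05, was not called. In bile acid synthesis 0 of 15 tested genes were called by edgeR's quasi-likelihood test, with a median of 0.11. Of the 15, 9 had an unadjusted p under 0.05, 7 of them higher and 2 lower, against 9.35% of all tested genes. CYP7A1, which sets the pace of the classic bile acid pathway, stood at 22.3, 19.2 and 21.3 CPM with 6N, against 17.3, 15.7 and 14.9 CPM with DMSO. The groups did not overlap, but the change of 0.39 (SE 0.10) had an edgeR adjusted p of 0.0936. It passed with no filter on low counts (adjusted p = 0.0161), against the mean of both vehicles (adjusted p = 0.0259) and by DESeq2 (adjusted p = 0.0285). DESeq2 called 1 gene of this list and limma-voom 0. With replicate number as a block 7 were called, 6 higher and 1 lower, and CYP7A1 had an edgeR adjusted p of 0.000641.

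Among 25 tested targets of LRH-1 itself 0 were called by edgeR's quasi-likelihood test. The median was 0.00, and 3 had an unadjusted p under 0.05, 2 higher and 1 lower, against 9.35% of all tested genes. DESeq2 called 1, CYP7A1, and limma-voom 0. A fit with replicate number as a block called 3, of which 1, CYP7A1, was higher with 6N and 2 were lower. NR0B2, encoding the corepressor SHP, stood at 101, 79.3 and 97.8 CPM with 6N, against 75.1, 74.8 and 96.8 CPM with DMSO. The groups overlapped, and the 95% interval of the log2 fold change was -0.14 to 0.49. For CYP8B1, the sterol 12-hydroxylase, the interval was -0.13 to 0.28, and for CYP19A1, the aromatase, -0.05 to 0.30.

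Single members of other lists rose. ID2, an inhibitor of helix-loop-helix factors and a target of bone morphogenetic signalling, stood at 274, 285 and 263 CPM with 6N, against 199.5, 228 and 201 CPM with DMSO, a change of 0.39 (SE 0.06; edgeR adjusted p = 0.00145). KNG1, encoding kininogen, stood at 24.5, 23.9 and 30.2 CPM with 6N, against 17.8, 19.4 and 19.1 CPM with DMSO, a change of 0.48. The acute phase genes ORM1 and ORM2 changed by 0.27 and 0.26, the 2 called of 20 tested in their list; they are adjacent near-copies, so that their reads can be split between them. CTSB, a lysosomal protease, changed by 0.33 (SE 0.06), while WIPI1, of autophagy, and LIPA, the lysosomal lipase, changed by -0.38 and -0.21 and each lost the call without 6N replicate 2 or DMSO replicate 2, LIPA also without DMSO replicate 1. LGALS2, a galectin, changed by 0.47.

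The largest fall among genes of at least 1 CPM was that of IL17B, a cytokine gene. It stood at 12.7, 8.49 and 8.61 CPM with 6N, against 24.6, 24.6 and 24.8 CPM with DMSO, a change of -1.31 (SE 0.12; edgeR adjusted p = 1.86e-06). The DMSO libraries were nearly equal, and all 6N libraries lay well below them. IL21R, a cytokine receptor gene, changed by -0.96 (SE 0.10) and AGR2, a disulfide isomerase of the secretory pathway, by -0.94 (SE 0.13). PIK3IP1, an inhibitor of PI3 kinase, changed by -0.71 and lost the call without 6N replicate 2 or 3 or DMSO replicate 1. TRIB3, a stress-induced pseudokinase, at -0.24, was the 1 called gene of 31 tested ATF4 and amino acid response genes, and lost the call without DMSO replicate 2 (edgeR adjusted p = 0.0535).

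Many lists had no called gene, which is a common outcome for a short list when 1.14% of all tested genes were called. Of 45 lists, 24 had 0 called members in edgeR's quasi-likelihood test, with 0 to 14 members of each at an unadjusted p under 0.05. Of all tested genes 9.35% were at this level. The 24 include the lists of cell type markers, some with few tested genes. DESeq2 called a gene in 7 of the 24 and limma-voom in 2. Cell cycle genes all lay slightly above 0, 36 of 36, with a median of 0.11 and values of 0.01 to 0.31. Of them 14 had an unadjusted p under 0.05, and DESeq2 and limma-voom called 0. Genes of the unfolded protein response lay below 0 in 24 of 25 cases, with a median of -0.11; 11 had an unadjusted p under 0.05, DESeq2 called 1 and limma-voom 0. HSPA5, the ER chaperone BiP, stood at 1215, 1299.7 and 1219 CPM with 6N, against 1351, 1546 and 1433 CPM with DMSO, and its change of -0.21 was not called (edgeR adjusted p = 0.148).

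At the matched dose of 10 µM, 6N was also compared directly with each of the other small molecules. Both comparisons use the same 6N libraries as the comparison with DMSO, so that the sets of calls are not independent of it. Against 10CA, 253 of 14797 genes were called (1.71%), 98 higher with 6N (0.662%) and 155 lower (1.05%). Against 6N-10CA, 242 were called (1.64%), 76 higher with 6N (0.514%) and 166 lower (1.12%). The count against 10CA was 148 without 6N replicate 1, 157 without 6N replicate 2 and 141 without 10CA replicate 3. The count against 6N-10CA was 155 without 6N replicate 1, 138 without 6N replicate 2 and 143 without 6N-10CA replicate 3.

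Sterol and fatty acid genes were lower with 6N than with either of the other compounds. In the mevalonate arm 6 of 9 genes were lower with 6N than with 10CA and 7 lower than with 6N-10CA, and 0 were higher. From squalene synthase to cholesterol the numbers lower were 9 and 12 of 13, and in fatty acid synthesis 13 and 14 of 21, again with 0 higher. The median log2 differences of these lists were -0.43, -0.30 and -0.39 against 10CA and -0.68, -0.44 and -0.59 against 6N-10CA, with -0.0039 and -0.0043 over all genes. HMGCS1 stood at 165, 169 and 178 CPM with 6N, against 265, 313 and 299.99 CPM with 10CA and 336, 373 and 376 CPM with 6N-10CA. The 6N libraries lay below both, with log2 differences of -0.78 (SE 0.06) and -1.09 (SE 0.06). FASN differed by -1.05 and -1.26, and SREBF1 by -0.97 and -0.93. EBP was not told apart from 10CA at -0.03 (95% interval -0.13 to 0.08) but was lower than with 6N-10CA, at -0.25.

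CYP1A1 was higher with 6N than with both. Its level was 36.9, 41.3 and 37.0 CPM with 6N, against 4.96, 11.4 and 5.59 CPM with 10CA and 4.75, 9.005 and 7.82 CPM with 6N-10CA. The log2 differences were 2.39 (SE 0.23; edgeR adjusted p = 4.63e-06) and 2.41 (SE 0.23; edgeR adjusted p = 1.86e-06). CYB5A was higher with 6N by 0.56 than with 10CA and by 0.24 than with 6N-10CA, where it stood at 284 CPM on average against 335 CPM with 6N. The glutathione transferase GSTA2 was higher than with 10CA by 0.74, and its difference from 6N-10CA, 0.22, was not called (95% interval 0.06 to 0.38).

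A further set of genes was called against 10CA and not against 6N-10CA; whether 10CA and 6N-10CA themselves differ in these genes was not tested here. SLC51A stood at 28.96, 24.9 and 23.4 CPM with 6N, against 19.4, 15.4 and 20.5 CPM with 10CA and 39.4, 32.0 and 32.4 CPM with 6N-10CA. It was higher with 6N than with 10CA by 0.48 (edgeR adjusted p = 0.0291), and its difference from 6N-10CA, -0.42, was not called (edgeR adjusted p = 0.0560; 95% interval -0.65 to -0.20) although the libraries did not overlap. KNG1 differed from 10CA by 0.53 and from 6N-10CA by -0.27, which was not called (95% interval -0.45 to -0.09). ID2 differed from 10CA by 0.38 and from 6N-10CA by 0.01, not called (95% interval -0.12 to 0.14). AGR2 differed from 10CA by -0.62, and its difference from 6N-10CA was -0.23, not called (95% interval -0.51 to 0.04). CYP7A1 was higher with 6N than with 10CA by 0.49 (edgeR adjusted p = 0.0147), the 1 called gene of 25 LRH-1 targets in that comparison, and its difference from 6N-10CA was -0.04 (95% interval -0.26 to 0.17). CYP24A1 was called against neither, at 1.13 against 10CA (edgeR adjusted p = 0.0879) and 0.92 against 6N-10CA (edgeR adjusted p = 0.169), with 95% intervals of 0.46 to 1.81 and 0.25 to 1.59.

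**Figure D4:**
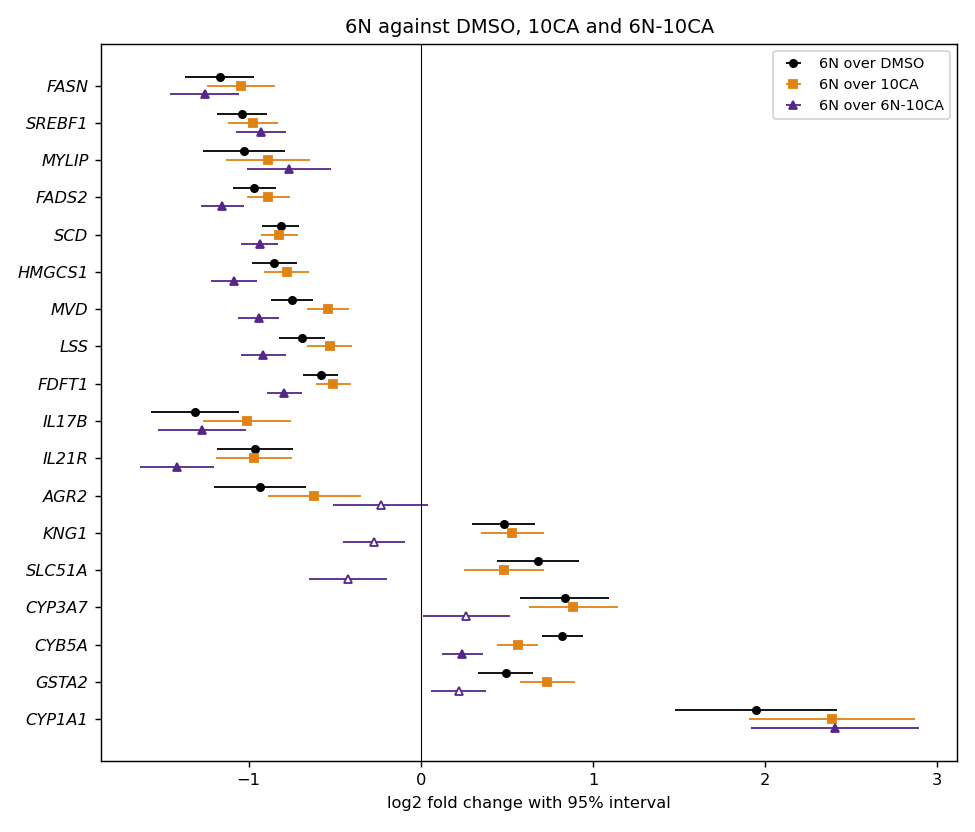
Log2 fold change of 6N over DMSO (black circles), 10CA (orange squares) and 6N-10CA (purple triangles) for 18 genes, with 95% intervals of the fit; filled symbols had an adjusted p under 0.05 and open ones did not. Lipid synthesis genes lie below 0 in all 3 comparisons, and CYP1A1 lies at 1.95, 2.39 and 2.41. AGR2, KNG1, SLC51A, CYP3A7 and GSTA2 have open symbols against 6N-10CA.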

How the data were processed

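The deposited values are raw whole-number counts for 18 libraries, with 35238 rows named by gene symbol. The submitters' processing notes name GRCh38 and DESeq2. Sources used here do not state the aligner, counter, annotation or strandedness. Total counts ran from 28135967 to 34992442 per library.

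Genes were kept by edgeR's filterByExpr (minimum count 10, total 15), which left 14797. All 18 libraries entered 1 fit with a mean per group and TMM scaling, and 6N was tested against DMSO, 10CA and 6N-10CA by the two-sided quasi-likelihood test of edgeR (version 4.0.16 in R 4.3.3), with p-values Benjamini-Hochberg adjusted over all genes and a threshold of 0.05. SE and intervals come from this fit, which was tested on simulated data. Levels (CPM) are counts per TMM-scaled library total, except those of the cell type markers, which use the total without TMM. Over 10669 genes above 5 CPM the 95% interval reached a median of 0.15 log2 units to either side; reads carried no molecular identifiers, so amplified copies count as separate reads. Chi-square values per gene between replicates, 5.05 to 11.4, exceeded sampling noise.

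The members and the 45 gene lists (901 of 997 genes tested) were chosen with earlier results of these data known. Named genes were the 15 largest rises and falls among called, non-overlapping genes of at least 1 CPM, the 4 called members of smallest p per list, all called members of the lipid, LXR, LRH-1 and AHR lists, and NR5A2, CYP7A1, CYP8B1, NR0B2, CYP19A1 and SREBF2; any further gene was picked with its values in view. Not every gene that meets this rule is reported here. Genes under date-like symbols (28, of which 0 were called) or clone-like symbols (3 called) are counted and not named. DMSO was taken as the vehicle from knowledge of the study, since the labels do not tie a vehicle to a compound. Symbols of 93.8% of tested genes matched GENCODE release 29 (GRCh38), the source of positions; promoters come from RefSeq (GRCh38.p14). Alternatives were RLE scaling, no filter, DESeq2 1.42.0, limma-voom (limma 3.58.1), only the groups compared, a replicate block, ethanol as vehicle or the mean of both vehicles, and each library left out in turn.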

Additional observations from a re-analysis of the deposited data

How the results depend on the processing

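For 6N against DMSO the count of called genes was 169. It was 265 with ethanol as the vehicle, 143 of them among the 169, and 270 with the mean of both vehicles, and it ran from 111 to 149 with 1 library left out. RLE scaling (168), no filter (241), DESeq2 (246), limma-voom (170) and only the groups compared (121) kept it within 1.5 times. Against 10CA the count was 253; it was 423 with no filter, 496 by DESeq2, 112 with only the groups compared and 141 to 338 with 1 library left out. Against 6N-10CA the count was 242; it was 403 with no filter, 501 by DESeq2, 109 with only the groups compared and 138 to 235 with 1 library left out. The share higher with 6N against 6N-10CA was 31.4%, and 50.5% by DESeq2 and 14.7% with only the groups compared. The cause of these shifts was not tested.

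Of 81 named called genes 55 kept their call in every alternative run for 6N against DMSO, and 0 changed direction. Ethanol as the vehicle ended the calls of 7, among them CYP24A1, CPT1A, FSTL3, SEC14L4 and SLC7A5. NR5A2, not called, changed sign to -0.0017 with ethanol and -0.06 without 6N replicate 2, and ran from -0.10 (without DMSO replicate 2) to 0.15 with 1 library left out.

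The labels give the groups the same replicate numbers. Deviations from the group means correlated weakly between same-numbered libraries, at 0.00448 to 0.124 and above 0 in 9 of 9 pairs of 6N with DMSO, 10CA and 6N-10CA, against -0.109 to 0.041 between other numbers. Only 2 of the 9 were over 0.1, and 6N replicate 2 correlated better with DMSO replicate 1 (0.0315) than with DMSO replicate 2. For this reason the numbers were not taken as pairs in the main fit. Yet FABP1 and NR0B2 were lowest in replicate 2 in every group. The main fit does not model such a shared effect, nor do the fits with 1 library left out in which calls were lost. The block lowered the biological coefficient of variation from 6.96% to 4.42%. With the replicate block the counts were 551 against DMSO, including all 169, 1133 against 10CA and 1231 against 6N-10CA, where 53.1% were higher with 6N. Against DMSO the block gave edgeR adjusted p-values of 2.6e-09 for FABP1, 9.02e-06 for TM7SF2, 3.62e-05 for SLC25A1 and 0.000641 for CYP7A1. The block called 7 genes of bile acid synthesis, 9 of the cell cycle, 8 of the unfolded protein response and 3 LRH-1 targets.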

Other observations

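Of the 169 genes called for 6N against DMSO, 95 belong to none of the lists. Some of them, chosen after their values were seen, are given as values. RNF145, a ubiquitin ligase, stood at 16.9, 18.2 and 17.5 CPM with 6N, against 24.9, 27.4 and 27.96 CPM with DMSO, a log2 fold change of -0.61 (SE 0.09). TMEM135, a membrane protein of peroxisomes and mitochondria, changed by -0.50 and was lower with 6N than with 10CA and 6N-10CA as well, with differences of -0.52 and -0.54. MMAB, a cobalamin enzyme whose gene lies beside MVK on chromosome 12, changed by -0.32. C14orf1, a sterol synthesis scaffold also known as ERG28, changed by -0.38.

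COL2A1, a collagen chain of cartilage, stood at 132, 118 and 125 CPM with 6N, against 179, 165 and 184 CPM with DMSO, with no overlap and a change of -0.49 (SE 0.07; edgeR adjusted p = 0.000232). COL9A2 changed by -0.42 and MATN3 by -0.30. DLK1, a fetal liver and progenitor gene, stood at 248, 208 and 214 CPM with 6N, against 303, 278 and 297 CPM with DMSO, a change of -0.39. HES6, a helix-loop-helix factor, changed by -0.40 (SE 0.04).

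ARSI, a sulfatase gene, and SLC6A14, an amino acid transporter gene, changed by -0.55 and -0.65 against DMSO. Their differences from 10CA were -0.46 and -0.59, both called, and those from 6N-10CA were -0.07 (95% interval -0.20 to 0.05) and -0.09 (95% interval -0.32 to 0.15), not called.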
